A study of Mus musculus with 4 samples.

Results

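Gabra2, Gabrg1, Gabbr1 and Gabbr2 encode subunits of the 2 families of receptors for the inhibitory transmitter GABA. They are 4 of the 17289 genes measured in single cells of the mouse vagal ganglion complex, were taken by name, and all 4 were in the expression table. They are described here across the 27 deposited cell clusters. The ganglia of 5-week-old mice gave 1825 cells in 4 droplet libraries. Unsorted suspensions from wild-type C57BL6 mice gave 2 libraries (wild-type unsorted 1 and 2, with 270 and 930 cells). Cells sorted by fluorescence gave the other 2 (Vglut2Cre-Tomato sorted 1 and 2, with 328 and 297 cells), from mice that carry Cre at the Slc17a6 (Vglut2) locus and a tdTomato reporter that Cre turns on. Slc17a6 encodes the glutamate transporter of vagal sensory neurons, so the sort selects cells that express it or once did. The number of animals behind each library is not labelled, so every p-value below reflects library-to-library spread, part of which may be technical.

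GABA-A receptors are chloride channels built from several subunits around a pore. The alpha subunit, such as the one encoded by Gabra2, shapes the response to GABA and to benzodiazepines, and a gamma subunit such as the one encoded by Gabrg1 completes many of the receptors. GABA-B receptors are G protein-coupled and work as a pair: the Gabbr1 product binds GABA, while the Gabbr2 product carries the pair to the cell surface and couples it to G proteins. In sensory neurons, chloride is held high inside the cell, so GABA-A channels can depolarise them. GABA-B receptors close calcium channels at their terminals and open potassium channels.

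The level of a gene is given as its UMIs (unique molecular identifiers, each marking 1 captured molecule) per 10000 UMIs of the cell. Reads come from the 3' ends of transcripts, so levels are not divided by transcript length. Deposited cluster names gave 1459 nodose neurons in 18 types (NG1 to NG18) and 245 jugular neurons in 6 types (JG1 to JG6). Another 51 cells were named satellite glia, 51 endothelial and 19 sympathetic. Median UMIs per neuron ran from 34352 to 68224 over the libraries, and the glia and endothelial cells were shallower, at medians of 9930 and 9670. The markers bore out the class names: the summed level of P2rx2 and Hoxb5 was 9.24 to 10.3 in nodose neurons and 0.122 to 0.402 in jugular neurons, and that of Prdm12, Prrxl1 and Wfdc2 was 4.21 to 4.60 in jugular and 0.0569 to 0.0701 in nodose neurons. Th, Dbh, Slc18a2 and Ddc summed to 40.0 and 37.4 in the sympathetic cluster, which held the nodose pair at 0.340 and 0.108. The table shared 1 barcode sequence between 2 libraries.

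In the GENCODE M21 annotation of the GRCm38 genome, the build that mm10 names, Gabrg1 (ENSMUSG00000001260.10) lies on the minus strand of chromosome 5 from 70751047 to 70842617. Gabra2 (ENSMUSG00000000560.9) follows it on the same strand, from 70957597 to 71095849, with 114979 bases between them, and Gabra4 and Gabrb1 come next. Gabbr1 (ENSMUSG00000024462.17) is on the plus strand of chromosome 17, from 37045966 to 37075067, and Gabbr2 (ENSMUSG00000039809.10) on the minus strand of chromosome 4, from 46662305 to 46991873. All are protein-coding and no other annotated gene overlaps them. The 250 bases before each gene's RefSeq start site (GRCm38.p6) are shown because the 4 genes split into broad and restricted patterns and the neighbours Gabra2 and Gabrg1 share a type. They read 5′ to 3′ on the gene's strand, and capitals mark the dinucleotide CG (CpG).
Gabra2: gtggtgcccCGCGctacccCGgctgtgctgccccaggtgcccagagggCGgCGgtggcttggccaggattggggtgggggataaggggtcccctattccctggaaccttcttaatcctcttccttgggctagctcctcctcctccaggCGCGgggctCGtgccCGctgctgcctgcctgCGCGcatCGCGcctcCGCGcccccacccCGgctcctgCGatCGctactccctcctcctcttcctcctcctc
Gabrg1: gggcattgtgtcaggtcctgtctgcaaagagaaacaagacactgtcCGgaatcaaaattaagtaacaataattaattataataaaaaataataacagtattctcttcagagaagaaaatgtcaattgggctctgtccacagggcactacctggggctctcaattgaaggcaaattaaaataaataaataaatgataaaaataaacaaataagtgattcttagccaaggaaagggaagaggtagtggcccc
Gabbr1: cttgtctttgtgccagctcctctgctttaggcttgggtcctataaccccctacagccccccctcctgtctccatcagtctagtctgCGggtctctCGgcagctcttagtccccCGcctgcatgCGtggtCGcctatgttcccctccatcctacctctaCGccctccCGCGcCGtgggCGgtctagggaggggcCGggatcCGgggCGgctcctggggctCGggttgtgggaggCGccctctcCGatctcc
Gabbr2: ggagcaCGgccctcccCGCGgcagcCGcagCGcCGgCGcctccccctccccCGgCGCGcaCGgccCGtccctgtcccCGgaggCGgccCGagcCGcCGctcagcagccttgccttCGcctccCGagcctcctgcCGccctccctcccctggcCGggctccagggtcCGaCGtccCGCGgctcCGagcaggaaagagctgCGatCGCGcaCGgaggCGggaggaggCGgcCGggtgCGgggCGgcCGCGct
The windows are chr5:71095850-71096099, chr5:70842618-70842867, chr17:37045716-37045965 and chr4:46991715-46991964. They held 18, 1, 16 and 37 CpG, against a median of 6 over the same window of 32851 RefSeq promoters. Of those promoters, 80.3% held no more CpG than that of Gabra2, 18.8% no more than that of Gabrg1, 76.5% no more than that of Gabbr1 and 98.1% no more than that of Gabbr2. The letters TATAAA, which 12.4% of the promoters hold on either strand, were in none of the 4. The broadly detected Gabbr1 and the more restricted Gabra2 had near-equal CpG counts. These are descriptions of the letters only.

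Gabbr1 was the subunit found in nearly every neuron. It reached 2.67, 2.997, 2.34 and 2.51 UMIs per 10000 in the neurons of wild-type unsorted 1 and 2 and Vglut2Cre-Tomato sorted 1 and 2. Satellite glia of the 2 unsorted libraries held 1.42 and 0.718, and endothelial cells 0.262 and 0.366. Sympathetic neurons held 2.72 and 2.36, inside the range of the sensory neurons. Within both unsorted libraries, sensory neurons were set against satellite glia and endothelial cells pooled, at 2.83 ± 0.232 against 0.705 ± 0.259 (SD, n = 2), with the library as a block. The difference was 1.18 on the log2(level + 1) scale (SE 0.12, limma adjusted p 6.15e-05). It passed both thresholds for a call, an adjusted p under 0.05 and at least 1 on that scale, as did 5.18% of the 9807 genes tested in the direction of neurons.

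Gabbr2 and Gabra2 were also higher in neurons, from lower levels. Gabbr2 held 0.446 and 0.569 in the neurons of the unsorted libraries, against 0.0501 and 0.0576 in their satellite glia and 0 and 0.0348 in their endothelial cells. The difference was 0.54 (SE 0.06, adjusted p 0.000124). Gabra2 held 0.328 and 0.437 in neurons, was at 0 in the satellite glia of both unsorted libraries, and was at 0 and 0.0301 in endothelial cells; its difference was 0.45 (SE 0.05, adjusted p 0.000106). Neither reached 1 on the log2(level + 1) scale, where changes of low genes look smaller than they are. Limma-voom on the UMI counts gave 3.62 and 4.39, but the non-neuronal side held few UMIs. Gabbr2 had 2 in satellite glia and 1 in endothelial cells, and Gabra2 had 1 in endothelial cells. The size of these limma-voom differences is therefore loosely set. At any fold, 3 of 3 tested members were higher in neurons at an adjusted p under 0.05, beside 40.6% of all genes. Gabrg1 did not pass the filter on low values (a mean above 0.1 in enough profiles) and was not tested: it held 0.101 and 0.0809 in neurons of the unsorted libraries, 0.0249 and 0.0396 in satellite glia, and 0 UMIs in 51 endothelial cells.

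Between the ganglia, Gabbr2 and Gabra2 were higher in jugular neurons, Gabrg1 was found almost only in nodose neurons, and Gabbr1 showed no difference past the test. Nodose neurons held Gabbr2 at 0.336, 0.425, 0.325 and 0.343 in wild-type unsorted 1 and 2 and sorted 1 and 2, and jugular neurons at 1.05, 1.34, 0.995 and 1.17. No nodose value reached a jugular one, as for 10.5% of the 8833 genes tested in that direction. With the library as a block, the nodose level was lower by 0.65 on the log2(level + 1) scale (SE 0.04, adjusted p 1.48e-06), at 0.357 ± 0.0460 against 1.14 ± 0.150 (SD, n = 4).

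Gabra2 stood in nodose neurons at 0.245, 0.322, 0.114 and 0.0716 and in jugular neurons at 0.789, 1.05, 0.288 and 0.445, in the same order of libraries. Jugular neurons were higher in each of the 4 libraries, although the highest nodose value, in an unsorted library, passed the lowest jugular one, in a sorted library. The difference was -0.45 (SE 0.06, adjusted p 0.000214), at 0.188 ± 0.116 against 0.642 ± 0.341. Without the library block the adjusted p was 0.0312, and in the unsorted libraries alone the difference was -0.58. Limma-voom put both genes past 1 on its own log2 scale, at -1.64 for Gabbr2 and -1.71 for Gabra2, and a pseudocount of 0.1 gave -1.44 and -1.33. In the main fit neither was called, so 0 of 3 tested members were among the 112 called genes (1.27%). At any fold, 2 of 3 were lower in nodose neurons, beside 19.1% of all genes.

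Gabrg1 held 0.119, 0.0957, 0.119 and 0.0685 in nodose neurons, with 723 UMIs in all. Jugular neurons held 0.00661, 0.00195, 0 and 0.0165, with 8 UMIs in 245 cells. The lowest nodose library stood above the highest jugular one, as for 16.0% of tested genes, but the gene passed 0.1 in 2 nodose libraries and no jugular one, too few for the filter, and has no test. Gabbr1 averaged 2.64 ± 0.259 in nodose neurons and 2.52 ± 0.443 in jugular ones. The difference of 0.05 (SE 0.05, adjusted p 0.406) was smaller than the spread between libraries.

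**Figure D1:**
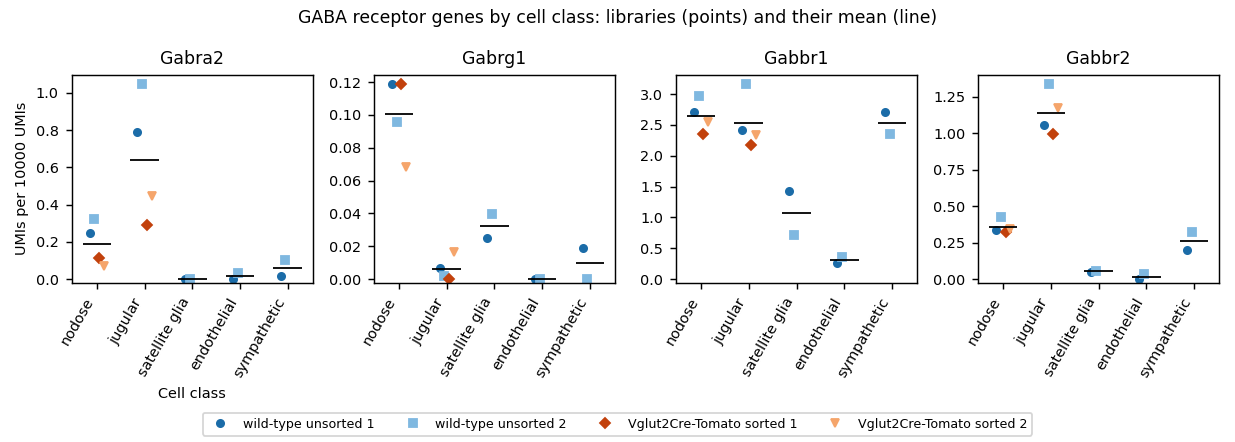
Level of Gabra2, Gabrg1, Gabbr1 and Gabbr2 (UMIs per 10000 UMIs, y axes differ) in 5 cell classes; points are libraries with at least 5 cells of the class and lines their means. Jugular points of Gabbr2 (0.995 to 1.34) lie above all nodose points (0.325 to 0.425), while Gabbr1 overlaps between the ganglia.

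Across neuron types, Gabrg1 stood above 0.5 in 2 of 24 types, Gabra2 in 5, Gabbr2 in 13 and Gabbr1 in all 24. The types are clusters drawn from these same transcripts, so the levels by type are a description without a test. A type's value is the mean over libraries with at least 5 of its cells, and 12 of the 24 types had all 4 libraries. The mix of sorted and unsorted libraries therefore differs between types, and Gabra2 was higher in unsorted neurons (below). With every library counted whatever its cells, Gabra2 was at 2.20 in NG1, 1.57 in JG1 and 1.25 in JG5. NG10 was then at 0.136 in place of 0.337. The coefficient of variation over the 24 type means was 0.153 for Gabbr1, 0.876 for Gabbr2, 1.33 for Gabra2 and 2.40 for Gabrg1.

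Gabra2 was highest in the nodose type NG1, at 2.25, 3.16 and 2.28 in wild-type unsorted 1 and 2 and sorted 1, a mean of 2.56 ± 0.512 (SD, n = 3). Jugular JG1 followed at 1.89 ± 0.939 (2.37, 2.48 and, in sorted 2, 0.806), and jugular JG5 at 1.59 ± 0.505 (1.95 and 1.24, n = 2). NG3 held 0.954 ± 0.564 and JG6 0.731 ± 0.327. The ranges of NG1 and JG1 over libraries overlap, as do those of all 23 neighbouring pairs in this order, so the steps between neighbours are within the spread. At the low end, 10 types were under 0.1, all of them nodose, and NG8 was lowest at 0.0107 ± 0.00238, with 6 UMIs in 124 cells.

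Gabrg1 was restricted to a smaller set of nodose types. NG1 held 1.11, 1.33 and 1.58 (1.34 ± 0.232, n = 3), and NG2 held 0.632 and 1.61 (1.12 ± 0.692, n = 2). NG18 and NG17 came next and did not reach the range of NG2. NG18 held 0.242, 0.150, 0.327 and 0.365, and NG17 held 0.239, 0.229, 0.247 and 0.222 in the 4 libraries. NG3 was at 0.154 ± 0.00650 (n = 2, 23 UMIs in 29 cells), and those libraries lay below each NG17 value. In sorted 2, with only 3 NG3 cells, NG3 held 0.229 and NG17 0.222, so the 2 types were not set apart. NG4 was at 0.130 ± 0.193 with 0.352 in sorted 1 alone. The other 18 types were under 0.1. No Gabrg1 UMI was found in NG6, NG10, JG1, JG2, JG3 or JG4; 3 UMIs over the 70 cells of JG2 would give 0.00682.

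Gabbr1 was above 1 in all 24 types. The highest means were 3.34 ± 0.687 in JG1 (n = 3) and 3.26 ± 0.327 in NG13 (n = 4), and the lowest was 1.78 ± 0.627 in NG12 (n = 4), a ratio of 1.87. All 23 neighbouring ranges overlap, and the leading type was JG1, NG13, NG17 or JG6 depending on how cells were averaged. Gabbr2, its partner, spanned a 65.6-fold range. JG1 led at 2.47, 3.27 and 1.82 (2.52 ± 0.729), followed by nodose NG5 at 1.61, 1.95 and 2.42 (1.99 ± 0.406) and NG1 at 1.14, 1.58 and 1.91 (1.54 ± 0.385). JG5 (1.46 ± 0.620), JG2 (1.19 ± 0.239), NG3 (1.17 ± 0.327), NG2 (1.081 ± 0.488) and JG6 (1.03 ± 0.179) were also above 1. The lowest, NG8, held 0.0704, 0.0366, 0.0366 and 0.00999, or 21 UMIs in 124 cells. NG6 above it held 0.0991 and 0.0964 in the 2 libraries with enough cells, and had 8 UMIs in 27 cells. With every library counted whatever its cells, NG6 was also at 0 in unsorted 1 and at 0.167 in sorted 1. Those values rest on 2 and 3 cells, so the types NG8 and NG6 were not set apart. The Gabbr1 level of NG8 was 2.83 ± 0.662, at rank 7 of the types. With at least 10 cells per profile JG1 drops out and NG5 leads Gabbr2, at 1.61.

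**Figure D2:**
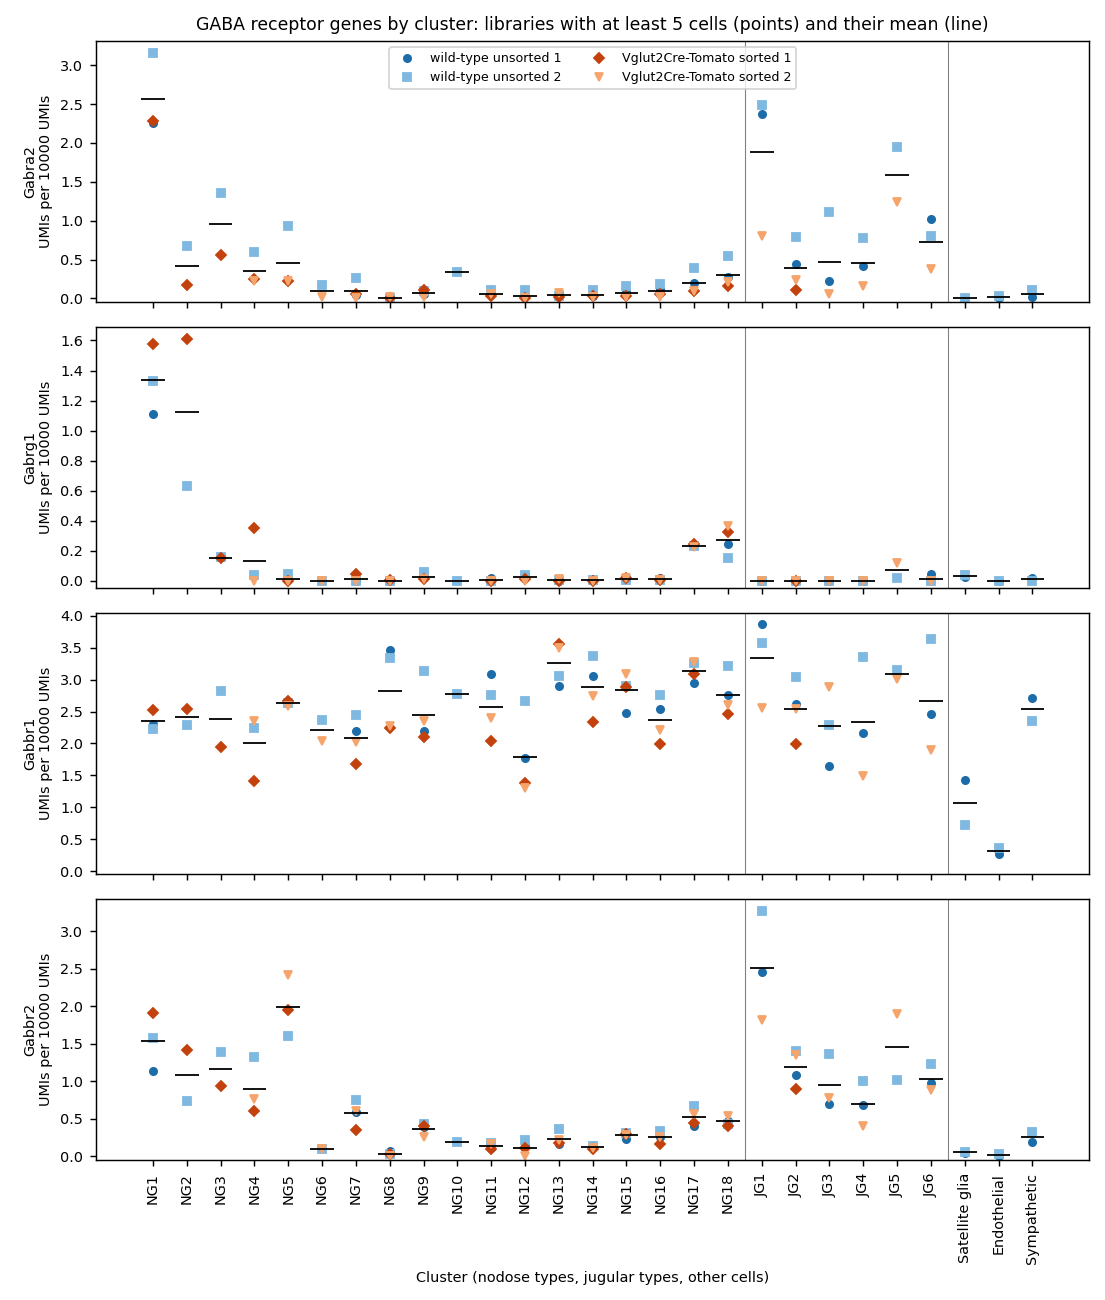
Level of each gene (UMIs per 10000 UMIs) in 18 nodose types, 6 jugular types and 3 other clusters; points are libraries with at least 5 cells and lines their means. Gabrg1 stands above 0.5 in NG1 and NG2 only, Gabbr1 above 1 in every neuron type, and Gabra2 and Gabbr2 share high levels in NG1, JG1 and JG5.

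Gabra2, Gabrg1 and Gabbr2 were each above the remaining nodose neurons of the library in NG1 (3 of 3 libraries), NG2 and NG3 (2 of 2 each) and NG18 (4 of 4). NG17 exceeded the rest of the nodose ganglion in Gabrg1 and Gabbr2 in 4 of 4 libraries and in Gabra2 in 2 of 4. NG4 and NG5 did so in Gabra2 and Gabbr2 in 3 of 3. JG1 was above the other jugular neurons in Gabra2 and Gabbr2 in 3 of 3 libraries while holding no Gabrg1 UMI. Over the 24 type means as log2(level + 1), which share libraries, Gabra2 and Gabbr2 had Pearson's r = 0.82, and 0.75 over the 18 nodose types. Gabra2 and Gabrg1 had r = 0.46 over all types and 0.76 over nodose types. The GABA-B partners Gabbr1 and Gabbr2 had r = 0.14.

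**Figure D3:**
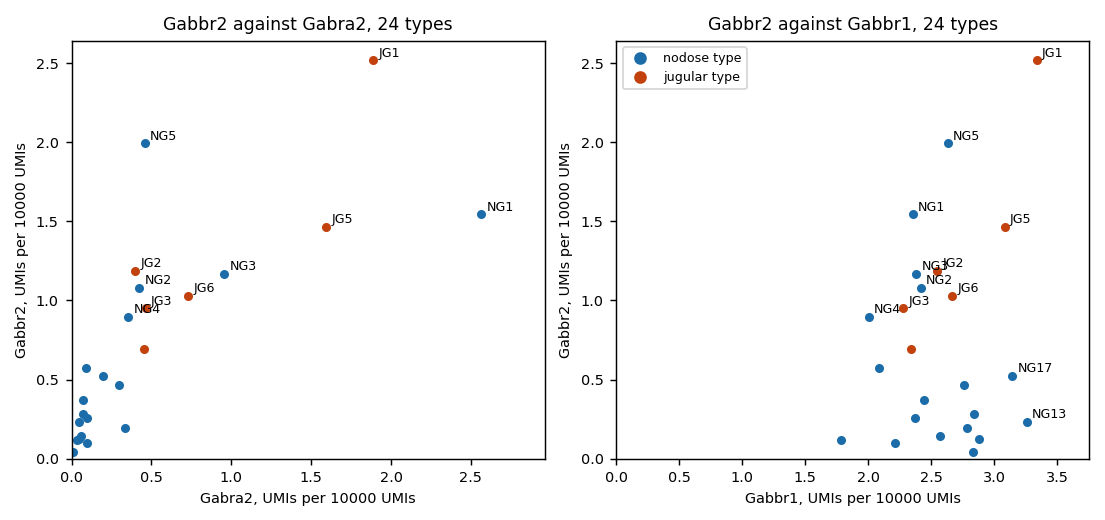
Mean level of Gabbr2 against Gabra2 (left) and against Gabbr1 (right) in 24 neuron types, all axes in UMIs per 10000 UMIs; blue points are nodose and orange points jugular types. Gabbr2 is high where Gabra2 is high (r = 0.82 on the log2(level + 1) scale), and spreads from 0.0384 to 2.52 while Gabbr1 stays between 1.78 and 3.34 (r = 0.14).

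On the same scale, the genes most like each member over the 24 types were taken from 6185 genes above 0.5 in at least 1 type. They were Lrrn1 (r = 0.87), Sel1l3 (0.85) and Gprc5c (0.85) for Gabra2. For Gabrg1 they were Iars (0.89), Prss12 (0.89) and Hapln4 (0.87), each highest in NG1 or NG2. For Gabbr1, whose neighbouring types all overlap in range, they were Mprip (0.76), Unc13a (0.73) and Prkab2 (0.70). For Gabbr2 they were Prnp (0.90), highest in NG5, then Zfp703 (0.83) and 1700020I14Rik (0.82).

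In single cells, a Gabbr1 UMI was found in 98.6% of 1704 neurons (95% Clopper-Pearson interval 97.9 to 99.1), a Gabbr2 UMI in 64.1% (61.8 to 66.4), a Gabra2 UMI in 41.7% (39.4 to 44.1) and a Gabrg1 UMI in 13.0% (11.4 to 14.7). These intervals cover counting error only. Endothelial cells, which are shallower, had 23.5%, 1.96%, 1.96% and 0 of 51; 3 cells would be 5.88%. With each cell thinned to 10000 UMIs the neuronal shares were 91.6%, 30.5%, 18.2% and 4.33%. Endothelial cells then had Gabbr1 in 15.0% and the others in 0 of 20 cells, where 0 of 20 allows up to 16.8%. The thinned neuronal shares of Gabbr1 and Gabbr2 lie above what those cells show. That of Gabra2 (interval 16.4 to 20.1) reaches down to the 16.8% limit, and that of Gabrg1 falls under it.

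Nodose and jugular neurons differed in the same genes by share. Gabbr2 was seen in 59.5% of nodose and 91.4% of jugular neurons, at median depths of 41372 and 37707 UMIs, and in 25.2% and 61.7% after thinning. Gabra2 was seen in 35.4% and 79.2%, and in 13.6% and 45.3% after thinning. Gabrg1 was seen in 14.8% of nodose neurons and in 5 of 245 jugular neurons, and after thinning in 5.07% and 0 of 243. Satellite glia had a Gabbr1 UMI in 62.7% of cells, and Gabra2 in 2 of 51, both in sorted library 1, whose satellite cluster held 4 cells.

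Gabra2 and Gabrg1 UMIs met in 34 of 43 NG1 cells (79.1%, 63.96 to 89.96), and in 16 of 41 (39.0%) after thinning. The pair was in 14 of 29 NG3 cells, 47 of 110 NG17 cells, 31 of 74 NG18 cells and 10 of 30 NG2 cells, and in 0 of 24 JG1 cells. After thinning it was in 2 cells each of NG3 (of 29), NG17 (of 108), NG18 (of 74) and NG2 (of 28). Among nodose neurons with a Gabrg1 UMI, 74.1% also had Gabra2, beside 35.4% of all nodose neurons, and 30.9% of those with Gabra2 had Gabrg1, beside 14.8%. After thinning these shares were 34.2% beside 13.6%, and 12.8% beside 5.07%. The GABA-B pair was present in 59.2% of nodose and 90.6% of jugular neurons, and in 22.9% and 56.8% after thinning. It was in 43 of 43 NG1 cells and 24 of 24 JG1 cells, and in 19 of 124 NG8 cells (15.3%, 9.48 to 22.9). A Gabbr2 UMI came almost always with one of Gabbr1, in 99.5% of nodose neurons that had Gabbr2, which is close to the share with Gabbr1 in nodose neurons as a whole (98.6%).

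The other GABA-A subunit genes place Gabra2 and Gabrg1 among their possible partners. Of 19 genes in the list, Gabra2 and Gabrg1 included, 16 were in the table and 5, Gabra2 among them, were tested between the ganglia. Higher in nodose neurons at an adjusted p under 0.05 were 2 of them (25.2% of all genes). Lower were 2 including Gabra2 (19.1%), and 1 did not pass. Their median difference was 0.01, as over all genes, and none was called. Gabrb1, a neighbour of Gabra2 on chromosome 5, was highest in NG6 (0.899 ± 0.0533) and NG1 (0.642 ± 0.0707). Gabra4, also a neighbour, passed 0.1 in 1 type, NG1, at 0.172 ± 0.0491. So NG1 held the 4 genes of this stretch, Gabrg1, Gabra2, Gabra4 and Gabrb1, each at its first or second rank among the types. Among other subunits, Gabra3 reached 0.474 ± 0.102 in JG1, Gabrb2 0.349 ± 0.258 in NG5, Gabra5 0.316 ± 0.254 in NG3, Gabre 0.237 ± 0.146 in NG13 and Gabrd 0.123 ± 0.144 in JG6.

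**Figure D4:**
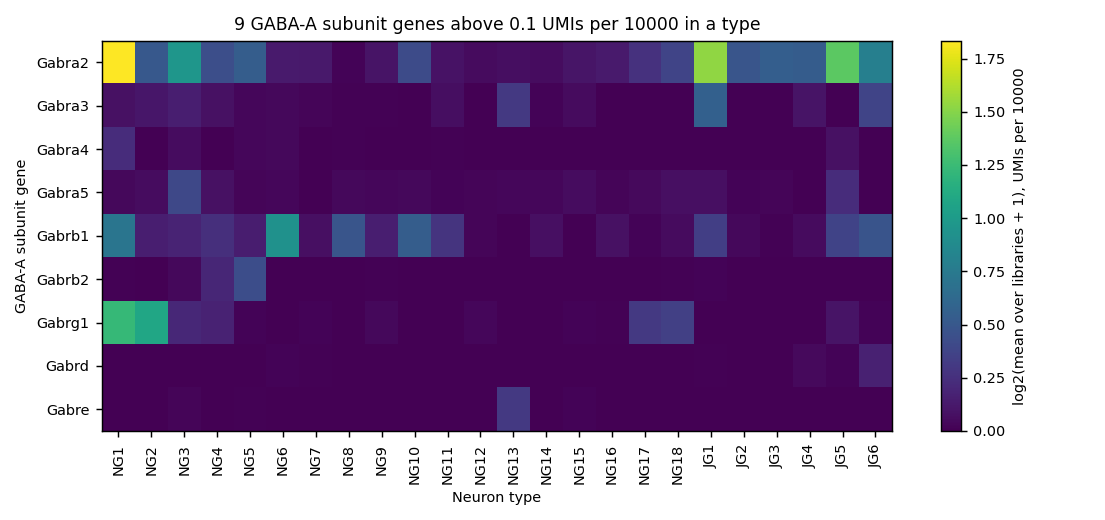
Heat map of 9 GABA-A subunit genes (rows, each above 0.1 UMIs per 10000 in at least 1 type) in 24 neuron types (columns); colour is log2(mean over libraries + 1). Gabra2 is brightest in NG1, JG1 and JG5, Gabrg1 in NG1 and NG2, and Gabrb1 in NG6 and NG1.

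Of 8 GABA-B receptor and auxiliary genes, 4 were tested between the ganglia, the members Gabbr1 and Gabbr2 among them. In nodose neurons 1 was higher (25.2% of all genes) and 2, including Gabbr2, were lower (19.1%), with a median of -0.23. Kctd8, whose protein binds the receptor, went the way of Gabbr2. It held 0.413 ± 0.139 in nodose and 1.03 ± 0.370 in jugular neurons (-0.51, SE 0.05, limma adjusted p 3.96e-05). Its highest types were jugular JG2, JG3 and JG6. Itfg1 was higher in nodose neurons (0.37, SE 0.06, adjusted p 0.000853). Kctd12, another auxiliary gene, was highest in NG8 (0.660 ± 0.212), the type lowest in Gabbr2, and was higher in non-neuronal cells than in neurons (-0.80, adjusted p 0.000180), as were 25.8% of all genes at any fold.

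Among GABA-B effectors, 4 of 12 tested genes were higher and 2 lower in nodose neurons, shares near the 25.2% and 19.1% of all genes, with a median of -0.04. Kcnj3, a subunit of the potassium channels that the receptor opens, averaged 0.391 ± 0.0454 in nodose neurons and 0.142 ± 0.0523 in jugular ones (0.29, SE 0.03, adjusted p 9.10e-05), and was highest in NG1 (1.27 ± 0.458). It was at 0.0140 ± 0.0242 in JG1, where Gabbr2 was highest. Gnai1, an inhibitory G protein alpha subunit, was higher in nodose neurons by 0.42, and the calcium channel gene Cacna1e by 0.35. 
Set against the non-neuronal cells, neurons were higher in most of these genes. All 5 tested GABA-A subunit genes, Gabra2 included, were higher at any fold (40.6% of all genes). Their median was 0.45 beside 0.07 over all genes. Of 11 effectors 5 were called higher (5.18% of all genes), among them Gng3 (2.64), Gnao1 (2.57) and the N-type calcium channel gene Cacna1b (1.57). The GABA-B auxiliary gene Itfg1 was called higher (1.16), as were the trafficking genes Gabarapl1 (1.79), Lhfpl4 (1.34) and Nsf (1.31), the first encoding a relative of the GABA-A receptor-associated protein. Glrb (0.78) and Aldh5a1 (0.26) were higher in neurons at any fold. The GABA transporter gene Slc6a11 (-0.22), Abat (-0.32) and the glycine receptor gene Glra1 (-0.33) were lower. Without the filter on low values, Abat and Glra1 had an adjusted p of 0.0833 and 0.0694.

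Chloride transporters set the direction of GABA-A currents. Of the 3 tested between the ganglia, 2 were higher in nodose neurons (25.2% of all genes) and 1 was lower (19.1%), with a median of 0.18. Slc12a2 (NKCC1), which brings chloride in, was lower in nodose neurons, at 0.336 ± 0.0446 against 0.583 ± 0.0364 (-0.25, SE 0.04, adjusted p 0.000457). The potassium-chloride cotransporter gene Slc12a7 was higher, by 0.41 (SE 0.04, adjusted p 1.61e-05). It was highest in NG9 (1.37 ± 0.203) and NG8 (1.15 ± 0.0530), and was at 0 in the 3 libraries with at least 5 JG3 cells. Slc12a2 was also called in neurons against non-neuronal cells, where neurons were lower by 1.03 and 3.34% of all genes were called lower.

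The enzymes that make GABA were near absent: Gad1 had 5 UMIs in 1459 nodose and 3 in 245 jugular neurons, and Gad2 had 11 and 3, while 19 sympathetic neurons held 23 Gad2 UMIs. The breakdown genes Abat and Aldh5a1 were higher in nodose neurons, by 0.12 (adjusted p 0.00974, and 0.0544 without sorted 2) and 0.18 (adjusted p 5.05e-05). Of 13 tested scaffold and trafficking genes, 4 were higher and 3 lower in nodose neurons, shares near those of all genes (25.2% and 19.1%), with a median of -0.01. Iqsec3 (0.39) was higher, and Gabarapl2 (-0.42) was lower, though not past the test without the library block (adjusted p 0.158). The 1 tested glycine receptor gene, Glrb, was higher in nodose neurons by 0.28 (SE 0.05, adjusted p 0.000925), and led in NG2 (2.72 ± 0.545).

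Sorted and unsorted neurons differed in Gabra2 and not, past the test, in the other members. Gabra2 stood at 0.328 and 0.437 in the neurons of the unsorted libraries and at 0.128 and 0.134 in those of the sorted ones. Its libraries did not overlap, nor did those of Gabbr1, as for 29.7% of 8912 genes in that direction. The unsorted mean of Gabra2 was 2.92 times the sorted one. The Gabra2 difference was -0.29 (SE 0.04, limma adjusted p 0.000396), short of a call, with limma-voom at -1.69 and a pseudocount of 0.1 at -1.05. Equal weight per type gave -0.15 (limma adjusted p 0.00364), but over only the 12 types with at least 5 cells in every library. Those leave out the types highest in Gabra2, which are NG1, JG1, JG5, NG3 and JG6. Gabbr1 was at 2.67 and 2.997 against 2.34 and 2.51 (-0.16, adjusted p 0.277), Gabbr2 at 0.446 and 0.569 against 0.377 and 0.482 (-0.08, adjusted p 0.323), and Gabrg1 at 0.101 and 0.0809 against 0.109 and 0.0597 (-0.01, adjusted p 0.784). So 1 of 4 members was lower in sorted neurons at any fold, beside 10.2% of all genes, and 0 were called, beside 0.404%. Sorting, genotype and library cannot be told apart.

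The Gabra2 gap was present within both ganglia, at 3.05 times in nodose and 2.50 times in jugular neurons. Of 12 types with at least 5 cells in every library, the sorted libraries were both below the unsorted ones in 7 and overlapped them in 5. The types share the same libraries, so they are not separate replicates. Among the 7, NG12 had 0 UMIs in each sorted library and NG11 had 2 and 7. JG2 held 0.448 and 0.786 unsorted against 0.111 and 0.238 sorted, and NG17 held 0.200 and 0.396 against 0.0941 and 0.101. NG1, the highest type, had only 4 cells in sorted 2 and is not among the 12; it held 2.25 and 3.16 unsorted against 2.28 and 1.12 sorted. For Gabbr1 the sorted libraries were lower in 8 of the 12 types and higher in NG13. For Gabbr2 they were lower in 3 and higher in none, and for Gabrg1 lower in 4 and higher in 2. Outside NG18, these Gabrg1 types rest on at most 10 UMIs in a library, such as 1 and 3 unsorted against 0 and 0 sorted in NG14. Over all pairs of gene and type, 25.9% were lower and 26.7% higher without overlap.

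**Figure D5:**
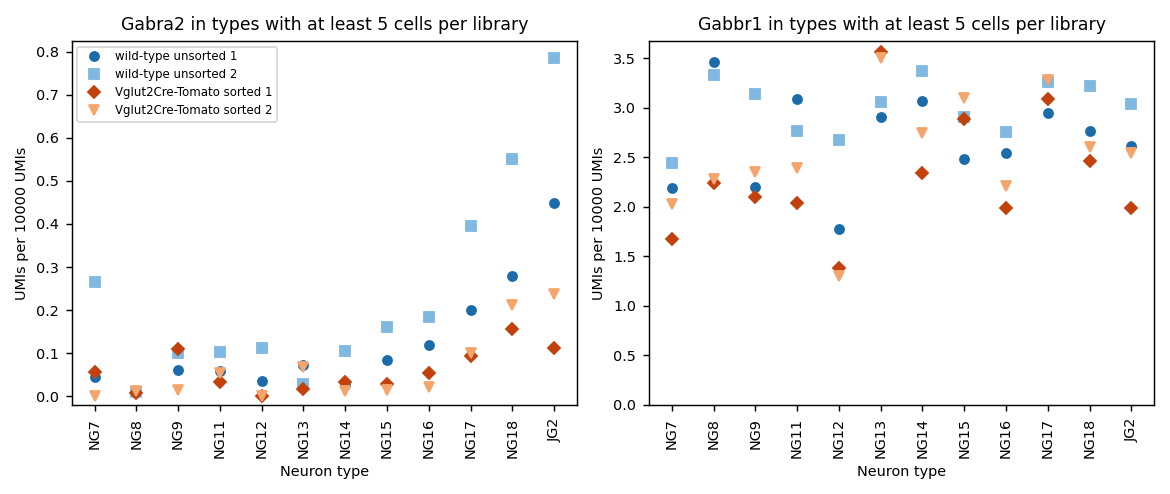
Level of Gabra2 (left) and Gabbr1 (right) in UMIs per 10000 UMIs in the 12 neuron types with at least 5 cells in every library; blue points are unsorted and orange points sorted libraries. For Gabra2 both sorted points lie below both unsorted ones in 7 types. For Gabbr1 they do so in 8 types and lie above in NG13.

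Markers of satellite glia moved with the sort. The summed level of Apoe, Fabp7, Sox10 and Kcnj10 in neurons was 20.6 and 18.9 in the unsorted libraries and 2.12 and 0.653 in the sorted ones. Satellite glia of the unsorted libraries, where that sum was 1007 and 791, held no Gabra2 UMI. Fibroblast markers (Dcn, Col1a1 and Lum) summed to 2.51 and 0.361 against 0.0680 and 0.122, Schwann markers to 3.87 and 3.81 against 4.59 and 4.06, and the 2 immune markers in the table to 0.0178 and 0.0232 against 0.108 and 0.110. Their part in the Gabra2 difference was not tested. The nodose and jugular difference in Gabra2 was -0.52 and -0.63 in the unsorted and -0.21 and -0.43 in the sorted libraries. The test of that gap gave 0.26 (SE 0.09, adjusted p 0.359), and 2 of 8833 genes passed it.

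Of the 6 GABA-A subunit genes tested, 2 were higher in sorted neurons (16.0% of all genes), 1, Gabra2, was lower and 3 did not pass. Kctd8 was higher (0.23, adjusted p 0.0215) but did not pass when unsorted 2, sorted 1 or sorted 2 was left out (0.12, 0.25 and 0.22, adjusted p 0.168, 0.120 and 0.131). Among 11 tested GABA-B effectors 3 were lower in sorted neurons (10.2% of all genes), Gnai2 (-0.65), Gnao1 (-0.64) and Cacna1a (-0.27). Without sorted 1 their adjusted p was 0.0580, 0.0907 and 0.116, and without sorted 2 that of Gnai2 and Gnao1 was 0.0567 and 0.0899. Of 13 scaffold and trafficking genes 2 were higher (16.0% of all genes) and 3 lower (10.2%). Clptm1 was higher (0.36, adjusted p 0.00179), and Nlgn2 (-0.21, adjusted p 0.00518) and Trak1 (-0.22, adjusted p 0.0318) were lower. Nlgn2 did not pass without sorted 1 (adjusted p 0.0848), nor did Trak1 without sorted 1 or 2 (0.306 and 0.0528).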

How the data were processed

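Per the labels' protocols, dissociated ganglia went into 10x Genomics droplet libraries (3' v2 chemistry). Per the submitters' processing notes, Cell Ranger 2.1.1 and Seurat were used with mm10; how cells were filtered and clustered is not given in the sources used here. Expression was deposited by the authors as natural log values, ln(1 + UMIs per 10000 UMIs of the cell). The deposited annotation gave each cell's library, cluster, gene count and UMI count, and its mitochondrial share as a fraction. After undoing the log, 100% of the values above 0 came out as whole UMIs (tolerance 0.01); annotated totals were higher by a median of 5. Of the 1896 cells that the series text mentions, 71 were not analysed here. All cells in the table were kept, without a search for doublets. The libraries held 16147719, 30778125, 17887507 and 17361999 UMIs.

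Levels were averaged per library and class (at least 10 cells), so a library is the replicate. A gene entered a fit where its mean passed 0.1 in a number of profiles no smaller than the smaller group. The fit was limma-trend (limma 3.58.1 in R 4.3.3) of log2(mean + 1). Tests were two-sided and p-values were adjusted by Benjamini-Hochberg over every gene in the fit. Calls needed an adjusted p under 0.05 and a log2 difference of at least 1. Fits of nodose against jugular neurons and of neurons against non-neuronal cells held the library as a block, since each library gave both classes. The design allowed for raw counts; the values are normalized, so limma was used; limma-voom, run on the recovered UMI counts, was an alternative. The fits were checked on simulated data. Clusters were drawn from the same transcripts, so these p-values measure how evenly the libraries carry a difference. Limma takes each gene's variance partly from all genes in the fit. In neurons against non-neuronal cells, with 2 libraries, most of it comes from other genes. The p-value there says little about how evenly the libraries carry a single gene. The 4 genes and the 7 lists were chosen with earlier results of these data known. Named beside the 4 were up to 3 genes of each list with the smallest adjusted p in each comparison (called ones first), GABA-A subunit genes by level, and the 3 genes most correlated with each member. Kctd12 was picked after its values were seen. Some genes of these lists and markers are not reported here by name. Gabra6, Gabrp, Gabrr2, Slc32a1, Insyn1, Kcnj5, Glra3 and Glra4 of these lists were not analysed here. Promoter sequences are from RefSeq (GRCm38.p6), in which all 4 genes matched by symbol.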

Additional observations from a re-analysis of the deposited data

How the results depend on the processing

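The alternatives were another pseudocount, no filter on low values, UMIs summed per profile, limma-voom, median centring, other minimum cell numbers, leaving out the 5% of cells with most UMIs or 1 library, and subsets of libraries or neurons; 2 were chosen after seeing the data (jugular neurons alone, and the test of the ganglion difference between sorts). Gabra2, Gabbr1 and Gabbr2 kept their direction and their side of an adjusted p of 0.05 in all of them. Whether a member was called, which also needs 1 on the log2 scale, did depend on the scale: under limma-voom, as under the pseudocount 0.1, Gabra2 was called in all 3 comparisons and Gabbr2 in nodose against jugular and neurons against non-neuronal cells (2.15 for both genes in the last under the latter). Gabrg1 in sorted against unsorted neurons, not past the threshold, changed sign, at 0.0045 without unsorted library 1 and 0.024 without sorted library 2, against -0.01; leaving out 1 library gave -0.042 to 0.024. Called genes numbered 112, 836 and 36 for nodose against jugular, neurons against non-neuronal and sorted against unsorted cells. With a pseudocount of 0.1 they were 739, 4114 and 172, and with limma-voom 1206, 5274 and 294. Without the replicate block (library), genes with an adjusted p under 0.05 at any fold in nodose against jugular neurons numbered 1965 in place of 3911, and no member changed its side of the threshold. In sorted against unsorted neurons that count of 2336 was 1336 without the filter, 623 and 961 without sorted library 1 or 2, and 580 in jugular neurons alone. No other paired analysis was possible because sorted and unsorted libraries share no source. Neurons against non-neuronal cells rest on 2 libraries, and leaving out either gave no test. Thinning to 10000 UMIs lowered the shares of neurons with a UMI to 18.2% (Gabra2), 4.33% (Gabrg1), 91.6% (Gabbr1) and 30.5% (Gabbr2). Counted as pairs of a named listed gene and an alternative, 32 lost their adjusted p under 0.05. Of these pairs, which can hold the same gene more than once, 27 were in sorted against unsorted neurons. Types of under 5 cells in a library, and levels near 1 UMI, limit the order of types.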
